A study of Mus musculus with 6 samples.

Results

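The genes described here encode proteins of focal adhesions that surround the adaptor protein p130Cas, the product of *Bcar1*. They were the 10 mouse genes *Bcar1*, *Zyx*, *Vcl*, *Tln1*, *Pxn*, *Ptk2*, *Itgb1*, *Src*, *Crk* and *Ilk*, chosen by name. Earlier results of these data were known when the genes were chosen. The platform annotation paired 9 of them with 13 of the 24048 probes on the array, and 7 probes of 6 genes were bright enough to be tested. No probe was paired with *Ptk2*, the gene of focal adhesion kinase, which was therefore not analysed here.

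Focal adhesions are sites at which a cell holds on to the protein matrix around it. Integrins span the membrane and bind the matrix outside, talin and vinculin tie their inner ends to actin filaments, and kinases such as focal adhesion kinase and Src phosphorylate adaptors such as paxillin and p130Cas. Phosphorylated p130Cas recruits the adaptor Crk, which passes the signal on to small GTPases that move the cytoskeleton. In the brain such proteins are known in vessel walls, in glia and in growing neurites and synapses.

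The brains came from male mice of the inbred strain BALB/c, 12 weeks old. For 6 weeks, 3 mice had been given oil palm phenolics (OPP, here also the name of the group), a phenolic extract recovered from palm oil milling, as their drink at 1500 ppm gallic acid equivalent, and 3 control mice had been given distilled water. All 6 mice ate a normal diet, and all took weekly water maze and rotarod tests. RNA of each brain was hybridized to 1 Illumina MouseRef-8 array, and the question was which genes differed in the brain between treated and untreated mice.

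The mice of a group may have shared a cage, so that a cage effect and the treatment cannot be told apart. According to the methods, samples that clustered as outliers were left out of the analysis and 3 per group were kept, the number of arrays used here, so each group may show only the spread that was left. Correlations between arrays on the log2 scale were 0.954 to 0.987. Control replicate 2 was the least like its group: r was 0.961 and 0.962 against the others, whose own r was 0.987. Of 14 neuronal marker genes 11 were measured, with a median log2 fold change of 0.01, and *Syt1*, *Map2* and *Thy1* were among them. Since RNA came from brain tissue of many cell types, fewer cells of a type and less RNA per cell cannot be told apart.

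DNA upstream of a start site is shown for the 2 genes that were lower in the OPP brains, *Bcar1* and *Zyx*, and for *Vcl*, which lies in the same protein complex and varied between brains. The sequences are from RefSeq on build GRCm38.p6, and the promoter table used here gave 10 windows of 250 bases for 8 of the 10 genes (*Pxn* and *Ptk2* had no entry in it). *Bcar1* had 2 windows. The one shown lies just before the outer end of the gene at chr8:111743850-111744099 on the minus strand. Capitals mark 2 GC boxes (GGGCGG on either strand), beginning 207 and 38 bases before the start. The other window, at chr8:111732137-111732386, held 3 GC boxes and is not shown. The stretch for *Zyx* lies at chr6:42349696-42349725 on the plus strand, and capitals mark a match to the AP-1 motif (TGACTCA on either strand), beginning 121 bases before the start that RefSeq gives for this window. That start is an inner one, so the stretch lies inside the outer limits of *Zyx* given with its values. The stretch for *Vcl* lies at chr14:20929151-20929200 on the plus strand, and capitals mark a CArG box, the motif bound by serum response factor, beginning 227 bases before the start.
*Bcar1* upstream window: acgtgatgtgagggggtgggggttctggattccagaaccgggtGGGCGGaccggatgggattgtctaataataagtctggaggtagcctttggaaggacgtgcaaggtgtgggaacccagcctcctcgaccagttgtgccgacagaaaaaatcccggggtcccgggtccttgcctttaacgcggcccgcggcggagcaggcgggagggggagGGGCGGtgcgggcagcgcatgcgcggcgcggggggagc
*Zyx* stretch with the AP-1 match: agtgcggacagTGAGTCAgttctccagcac
*Vcl* stretch with the CArG box: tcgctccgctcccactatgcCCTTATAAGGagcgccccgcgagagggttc

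A GC box was found in 8 of the 10 windows and in 32.7% of all 32851 promoter windows of the same length. The AP-1 motif was found in the *Zyx* window and in 4.46% of all windows, and the CArG box in the *Vcl* window and in 1.47%. The 10 windows had a GC content of 55.6% to 82.8%, against a median of 52.4% over all windows. In the 10 windows no match of one motif overlapped a match of another. The motifs were chosen after the values were seen, and a match is a description of letters, not of a bound site.

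*Bcar1* encodes p130Cas, a docking protein that carries many tyrosine sites for Src and has no enzyme activity of its own. The gene lies on chromosome 8 from 111710474 to 111743849 (GRCm38.p6). Its scaled intensity, the brightness of the probe after scaling between arrays, was 1507, 1046 and 1426 in control replicates 1 to 3. In OPP replicates 1 to 3 it was 1016, 855 and 936. All 3 OPP brains lay below all 3 controls, and OPP replicate 1 and control replicate 2 were close neighbours. The mean was 1326 ± 246 (SD, n = 3) in the control brains and 936 ± 80.7 (SD, n = 3) in the OPP brains, and on the log2 scale the spread was 0.28 and 0.12 (SD).

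The log2 fold change of *Bcar1* was -0.49 (SE, the standard error, 0.15, 95% interval -0.83 to -0.15), which is 71.3% of the control level. It passed limma at an unadjusted p of 0.00955 and did not pass after Benjamini-Hochberg adjustment over all 7611 probes (adjusted p = 0.989). The exact two-sided permutation test gave p = 0.1, the smallest that 3 brains against 3 can give. On the authors' own background-subtracted values *Bcar1* was 1273, 938 and 1264 in the control brains and 846, 697 and 756 in the OPP brains. The ratio of the group means was 0.661. It is not the same measure as the 71.3%, which comes from log2 means of intensities with background kept in. The order of the 6 brains on the authors' values was the same as on the scaled intensities at both ends, with control replicate 1 highest and OPP replicate 2 lowest. In 16 other ways of processing, the sign stayed and the unadjusted p stayed under 0.05. The log2 fold changes ran from -0.65 without control replicate 2 to -0.39 without control replicate 1. Leaving out 1 brain or weighting the arrays could not turn the sign, since the groups did not overlap. The detection filter settings, the replicate block and the mean over probes left the log2 fold change itself unchanged.

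*Zyx* encodes zyxin, a LIM domain protein that gathers at mature adhesions under tension and brings in actin assembly factors. The gene lies on chromosome 6 from 42349511 to 42360213. Its scaled intensity was 3035, 2860 and 3461 in the control brains. In the OPP brains it was 2598, 2669 and 2251. The groups did not overlap, and the highest OPP brain, replicate 2, lay near the lowest control, replicate 2. The mean was 3118 ± 309 (SD, n = 3) in the control brains and 2506 ± 224 (SD, n = 3) in the OPP brains.

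The log2 fold change of *Zyx* was -0.31 (SE 0.12, 95% interval -0.58 to -0.05, unadjusted p = 0.0242, adjusted p = 0.989 from limma), and the exact permutation test gave p = 0.1. The sign stayed in all 16 other ways of processing, but leaving out 1 brain could not turn it, since the groups did not overlap. The unadjusted p was under 0.05 in only 10 of the 16. It was 0.102 without control replicate 3, where the log2 fold change was -0.24, and 0.0856 without OPP replicate 3. It was 0.0812 without scaling between arrays, 0.0855 with normexp background correction and 0.0660 on the authors' values.

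**Figure D1:**
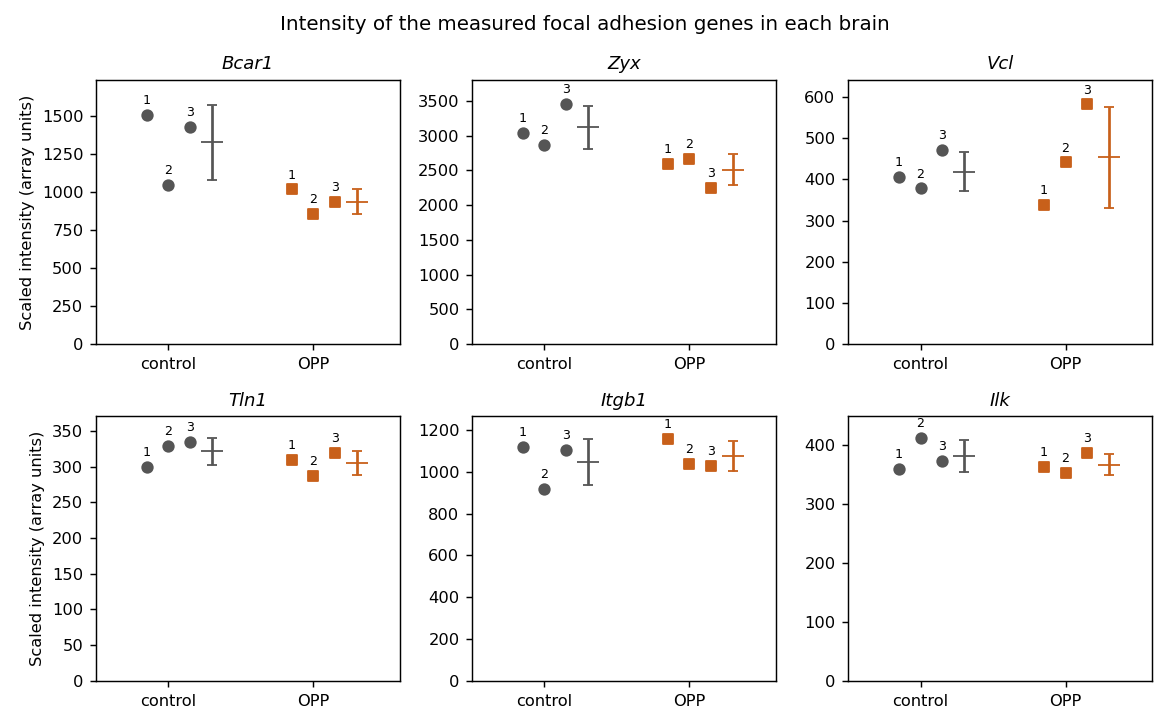
Scaled intensity (array units, axis from 0) of the 6 measured genes in each brain, with the replicate number above each point and, beside the points, the mean and SD of 3 brains. The groups are apart for *Bcar1* and *Zyx*, with the OPP brains lower, and overlap for *Vcl*, *Tln1*, *Itgb1* and *Ilk*.

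At an unadjusted p under 0.05, 2 of the 6 measured genes, *Bcar1* and *Zyx*, were lower in the OPP brains and 0 were higher. Of all 7611 tested probes, 2.08% were lower and 1.79% were higher at that threshold. The genes were chosen around *Bcar1* with earlier results of these data known, so the count cannot be weighed against these shares. The groups did not overlap in the same 2 genes, with the OPP brains lower, against 4.99% of all probes in that direction and 4.41% in the other. After adjustment 0 of the 6 genes passed, and of all probes 0.0131% were lower and 0% higher. The median log2 fold change of the 6 genes was -0.07, against 0.00 over all tested probes. The other 4 genes had intervals that held 0, and that of *Vcl* also held the value measured for *Zyx*.

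*Vcl* encodes vinculin, which binds talin and actin and strengthens adhesions under load. The gene lies on chromosome 14 from 20929383 to 21033676. Its scaled intensity was 405, 378 and 470 in the control brains and 338, 441 and 582 in the OPP brains. The OPP brains held both the lowest brain (replicate 1) and the highest (replicate 3), 1.72-fold apart, while the controls were 1.24-fold apart. On the log2 scale the difference was 0.09 (SE 0.19, 95% interval -0.33 to 0.51, unadjusted p = 0.645 from limma). It was -0.11 without OPP replicate 3 and 0.28 without OPP replicate 1, so its sign rests on single brains.

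*Tln1* encodes talin 1, which joins integrin tails to actin and switches integrins on. The gene lies on chromosome 4 from 43531513 to 43562583. Its scaled intensity was 299.75, 329 and 335 in the control brains and 309, 287 and 319 in the OPP brains. The groups overlapped, with control replicate 1 below OPP replicates 1 and 3. The log2 fold change was -0.08 (SE 0.10, 95% interval -0.30 to 0.15, unadjusted p = 0.472 from limma). The probe is dim and background remains in these intensities. With background removed the value was -0.19 (SE 0.17) by normexp correction and -0.20 (SE 0.19) on the authors' values.

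*Itgb1* encodes integrin beta 1, the membrane subunit that pairs with many alpha subunits to bind laminin, collagen and fibronectin. The gene lies on chromosome 8 from 128685654 to 128733579, on the chromosome that also holds *Bcar1*. Its brighter probe had scaled intensities of 1119, 918 and 1105 in the control brains and 1157, 1040 and 1027 in the OPP brains. Control replicate 2 was the lowest brain and OPP replicate 1 the highest, and the groups overlapped. Its log2 fold change came to 0.04 (SE 0.11, 95% interval -0.22 to 0.30, unadjusted p = 0.733). The dimmer probe, above background in 2 controls and 1 OPP brain, had a log2 fold change of -0.02 (SE 0.11).

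*Ilk* encodes integrin-linked kinase, a scaffold on the inner tail of integrin beta subunits. The gene lies on chromosome 7 from 105736590 to 105742925. Its brighter probe had scaled intensities of 359.5, 412 and 373 in the control brains and 362, 352 and 386 in the OPP brains. Control replicate 2, the lowest control for *Bcar1*, *Zyx*, *Vcl* and *Itgb1*, was the highest brain for *Ilk*. The difference on the log2 scale was -0.06 (SE 0.10, 95% interval -0.28 to 0.17, unadjusted p = 0.599). Across the 6 measured genes, OPP replicate 2 was the lowest brain for 3 of them, *Bcar1*, *Tln1* and *Ilk*.

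**Figure D2:**
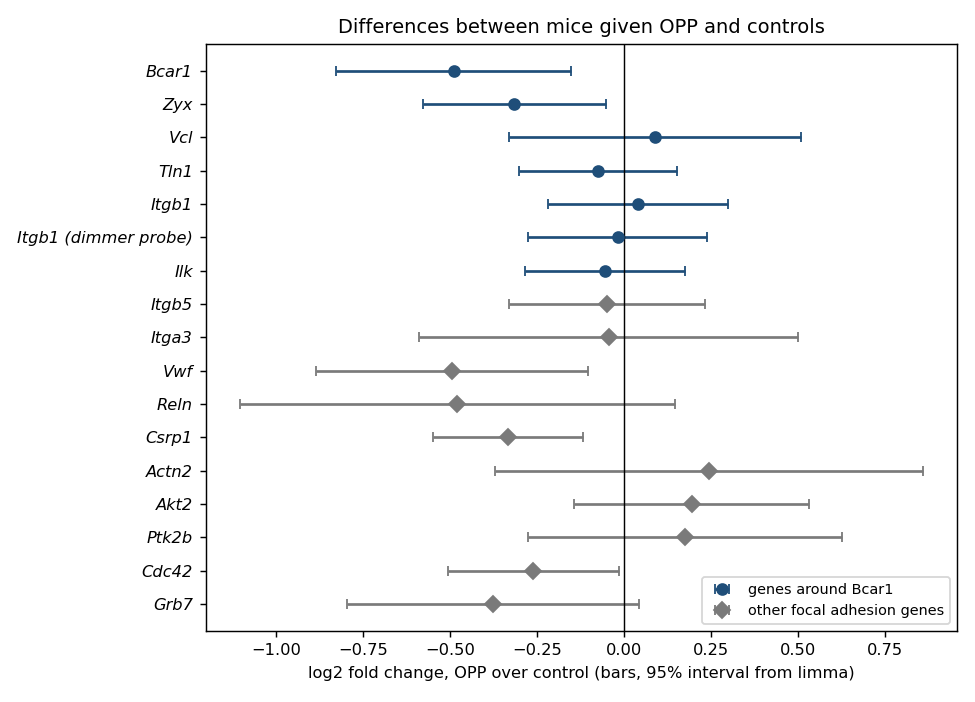
Log2 fold change (OPP over control) with its 95% interval from limma for the 7 tested probes of the genes around *Bcar1* (circles) and for the named genes of the other focal adhesion lists (diamonds). The intervals of *Bcar1*, *Zyx*, *Vwf*, *Csrp1* and *Cdc42* lie below 0, before any adjustment for the number of probes.

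Paxillin, Src and Crk link p130Cas to its signals, and none of their probes was bright enough to be tested. The brighter probe of *Pxn*, the gene of the adaptor paxillin, had scaled intensities of 257, 258 and 259 in the control brains and 258, 239 and 279 in the OPP brains. It was above background (detection level over 0.99) in OPP replicate 3 alone, while its detection levels in the control brains were 0.972, 0.966 and 0.971. The single probe of *Src*, which encodes the tyrosine kinase that phosphorylates p130Cas, lay between 167 and 208 and was not well above background in any of the 6 brains. The same held for both probes of *Crk*, which lay between 133 and 187, for the dimmer probe of *Pxn* and for the dimmer probe of *Ilk*. No fold change is given for these 6 probes, and a difference of these transcripts was not detectable on these arrays.

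**Figure D3:**
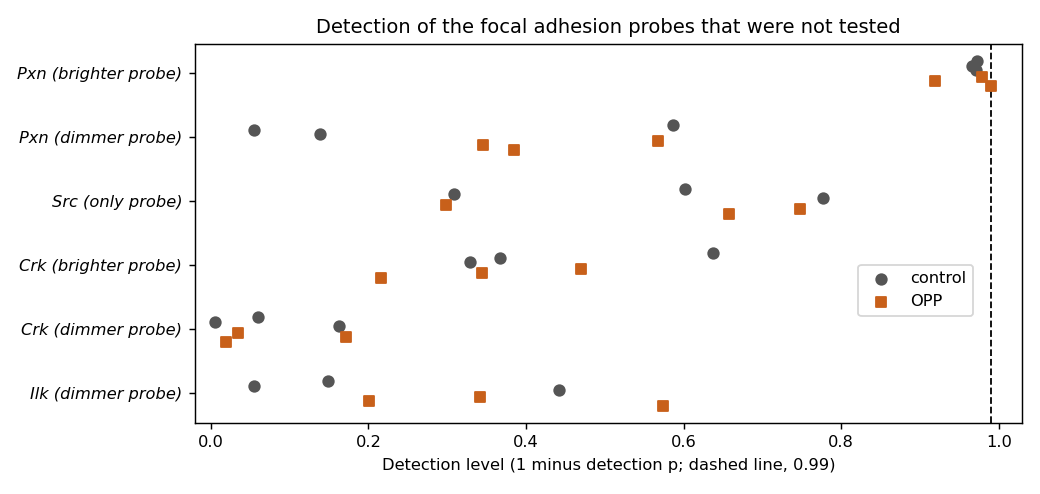
Detection level in each brain (x axis, 1 minus the detection p-value; points of a probe are spread vertically) for the 6 probes that were not tested, with the limit of 0.99 dashed. The brighter probe of *Pxn* lies near the limit in all brains, from 0.919 up to just past the limit, and the other probes lie well below it.

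The wider set of focal adhesion genes was read by role, from 5 lists with 52 measured genes in all. At an unadjusted p under 0.05 these held 3 lower and 0 higher genes, and 0 passed after adjustment over all probes in limma. Over all tested probes 2.08% were lower and 1.79% higher at that threshold, so 1 lower gene in a list of 11 to 19 is not a result about that list. Among integrin subunits other than *Itgb1* only 2 of 15 genes with a probe were bright enough to be tested. The gene of the laminin receptor subunit *Itga3* had a log2 fold change of -0.04 (SE 0.24). That of the vitronectin receptor subunit *Itgb5* had one of -0.05 (SE 0.12), and it was above background in only 2 controls and 1 OPP brain. *Itga3* was 699, 350 and 601 in the control brains and 461, 465 and 624 in the OPP brains, so the controls alone spanned all of the OPP brains.

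Of 11 measured matrix ligands of integrins, 1 was lower and 0 were higher, with a median log2 fold change of -0.02. *Vwf*, the gene of von Willebrand factor, which endothelial cells and platelets store, had scaled intensities of 582, 793 and 844 in the control brains and 499, 628 and 444 in the OPP brains. Its groups overlapped, because control replicate 1 lay below OPP replicate 2, and its log2 fold change was -0.50 (SE 0.17, unadjusted p = 0.0184). *Reln*, which encodes the secreted guidance protein reelin, had a log2 fold change of -0.48 with a larger spread (SE 0.28, unadjusted p = 0.117). The basement membrane genes *Hspg2* (perlecan, -0.23) and *Nid1* (nidogen, -0.17) did not overlap between the groups, as in 4.99% of all probes in that direction. They did not pass, at unadjusted p of 0.0552 and 0.0936 from limma, and *Hspg2* was above background in only 2 OPP brains. Of other basement membrane genes, *Col4a1* and *Col4a2* of collagen IV had log2 fold changes of 0.24 and 0.06. Those of *Lamb2*, *Lamc1* and *Agrn* were -0.02, -0.02 and 0.06.

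Of 13 measured actin linkers, 1 was lower and 0 were higher, and their median log2 fold change was 0.09. The lower gene was *Csrp1*, which encodes a LIM domain protein that binds zyxin and alpha-actinin. *Csrp1* had scaled intensities of 3067, 3024 and 3115 in the control brains and 2353, 2596 and 2363 in the OPP brains. The controls were close together and every OPP brain was below them (log2 fold change -0.33, SE 0.10, unadjusted p = 0.00667, adjusted p = 0.989). Further partners of zyxin, *Enah* and *Evl*, which encode actin polymerization factors of the Ena/VASP family, had log2 fold changes of 0.21 and 0.22. Their unadjusted p from limma was 0.0832 and 0.179. *Evl* was above background in only 1 control but in 3 OPP brains. The detection filter may have kept it through the OPP brains, so its higher value is not a result. *Enah* did not overlap between the groups, as in 4.41% of all probes in that direction. It had 429, 397 and 481 in the control brains and higher values of 486, 493 and 529 in the OPP brains. *Actn2*, which encodes an alpha-actinin, had a log2 fold change of 0.24 (SE 0.27), and *Actb* of beta-actin had one of -0.06.

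Of 7 measured kinases and phosphatases 0 were higher and 0 lower, with a median log2 fold change of 0.07. *Ptk2b*, which encodes Pyk2, the kinase most like focal adhesion kinase, had scaled intensities of 527, 961 and 590 in the control brains and 731, 780 and 754 in the OPP brains. Its log2 fold change was 0.17 (SE 0.20), with control replicate 2 the highest of all brains. *Akt2*, a kinase gene that acts downstream of integrins, had one of 0.19 (SE 0.15).

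Of 19 measured adaptors and GTPase regulators, 1 was lower and 0 were higher, with a median of -0.04. *Cdc42*, which encodes a small GTPase of filopodia, had scaled intensities of 1399, 1354 and 1311 in the control brains and 1171, 1227 and 1004 in the OPP brains. The groups did not overlap, as in 4.99% of all probes with the OPP brains lower. The log2 fold change of *Cdc42* was -0.26 (SE 0.11, unadjusted p = 0.0394). *Arhgef6*, which encodes an exchange factor for Rac and Cdc42, had one of -0.26 with groups that did not overlap and an unadjusted p of 0.0533. *Efs*, which encodes another member of the Cas family, had one of -0.09 (SE 0.11), *Crkl*, the close relative of *Crk*, one of 0.03 (SE 0.13), and *Rac1* one of -0.03 (SE 0.14). *Grb7*, which encodes an adaptor that binds focal adhesion kinase, had one of -0.38 (SE 0.19, unadjusted p = 0.0727 from limma). It was above background in 3 controls but in only 2 OPP brains.

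**Figure D4:**
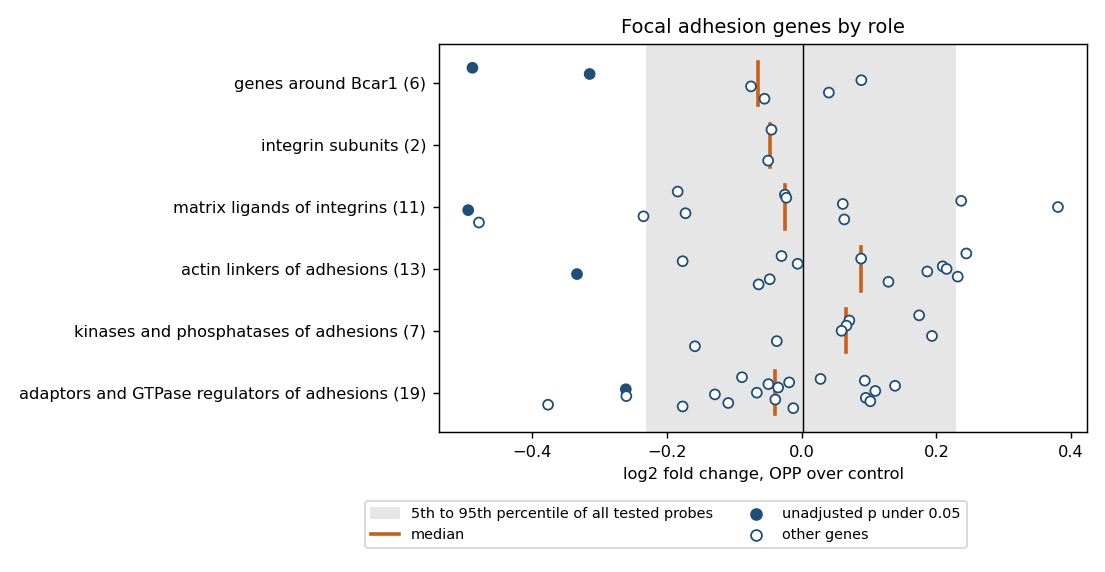
Log2 fold change (OPP over control) of each measured focal adhesion gene, by role, with the number of genes in parentheses, filled points for an unadjusted p under 0.05, vertical lines for medians and a grey band from the 5th to the 95th percentile of all tested probes (-0.23 to 0.23). All filled points (*Bcar1*, *Zyx*, *Vwf*, *Csrp1* and *Cdc42*) lie left of the band, while the medians of all rows lie within 0.09 of 0.

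Marker lists of other cell types were read beside *Bcar1* and *Zyx*, at the same unadjusted threshold. Of all tested probes, 2.08% were lower and 1.79% higher at it. Of 8 measured endothelial markers 6 lay below 0 and 3 (*Esam*, *Vwf* and *Slc2a1*) were lower at an unadjusted p under 0.05, with a median of -0.20. *Vwf* is the same gene that was counted among the matrix ligands. The summed scaled intensity of the 8 markers was 8279 to 9904 in the control brains and 7773 to 7878 in the OPP brains. The 2 markers above 0 were *Pecam1* and *Eng*, with log2 fold changes of 0.03 and 0.00. *Flt1*, *Ly6c1* and *Slco1c1* had log2 fold changes of -0.11, -0.27 and -0.13. *Cdh5*, *Tek*, *Kdr* and *Tie1* were not bright enough to be tested. Of 4 measured mural cell markers 0 passed, with a median of -0.11. The part of vessel cells in the lower *Bcar1*, *Zyx* and *Vwf* was not tested.

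Of the other lists, 0 genes passed among 9 oligodendrocyte (median -0.20), 6 meningeal fibroblast (-0.19), 6 astrocyte (-0.06), 5 microglia and macrophage (0.05) and 3 erythroid markers (-0.36), and 1 of 3 choroid plexus markers was lower. Over all tested probes the share lower at that threshold was 2.08%. Granulocyte markers were lower in 5 of 5 measured genes (median -1.74). Their summed scaled intensity was 2920 to 25820 in the control brains, highest in control replicate 2, and 1372 to 1636 in the OPP brains. Of these genes, *Ltf*, *S100a9* and *Camp* were above background in 3 controls each but in 0, 1 and 1 OPP brains. The detection filter kept them through the control brains, so their count as lower is not a result. *Ngp*, *Mpo* and *Elane* had a probe but were not bright enough to be tested. None of the 5 platelet markers with a probe was bright enough to be tested. The 5 measured cerebellar markers all lay below 0, with a summed level of 8915 in control replicate 2 but 23220 and 30700 for the remaining controls, and 11380 to 15360 in the OPP brains. Control replicate 2 was also the control with the least *Bcar1*, and without it the log2 fold change of *Bcar1* was -0.65 (adjusted p = 0.0804 from limma). The part of cerebellar tissue, blood or granulocytes in the level of *Bcar1* was not tested.

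The 5 genes whose pattern over the 6 arrays was most like that of *Bcar1* were *Csdc2*, *Tab1*, *Fndc10*, *Rcan3* and *Apeh*. Likeness was the root mean square difference between the log2 values of 2 genes, each centred on its own mean, and it was 0.0961 for *Csdc2*, 0.0972 for *Tab1* and 0.110 for *Apeh*, against a median of 0.319 over 5808 genes. *Csdc2*, which encodes a cold shock domain protein that binds RNA, had scaled intensities of 1422, 883 and 1280 in the control brains and 982, 878 and 811 in the OPP brains. *Tab1*, which encodes an activator of the kinase TAK1, had 1951, 1445 and 1750 in the control brains and 1479, 1282 and 1286 in the OPP brains. All of these follow the high control replicates 1 and 3 and the lower control replicate 2, because they were picked for likeness to *Bcar1* on these same arrays.

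Among the measured genes around it, *Zyx* was most like *Bcar1*, with a difference of 0.192 (rank 141 of 5808). It was followed by *Itgb1* (0.278), *Tln1* (0.288), *Ilk* (0.319) and *Vcl* (0.414, rank 5155). *Ilk* lay at the median of all genes, and *Vcl* was less like *Bcar1* than most genes were. The measure includes the shift between the groups, so *Zyx*, the other gene called lower, was favoured and the order partly restates the fold changes. With 6 arrays from 2 groups these differences are a description and carry no test.

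The intensities were also scaled to *Srsf9*, *Guk1* and *Hnrnpab*, the genes that the study used as references for PCR, a choice made after the data were seen. The log2 fold change was then -0.45 for *Bcar1* (SE 0.15) and -0.28 for *Zyx* (SE 0.12), both with an unadjusted p under 0.05.

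**Figure D5:**
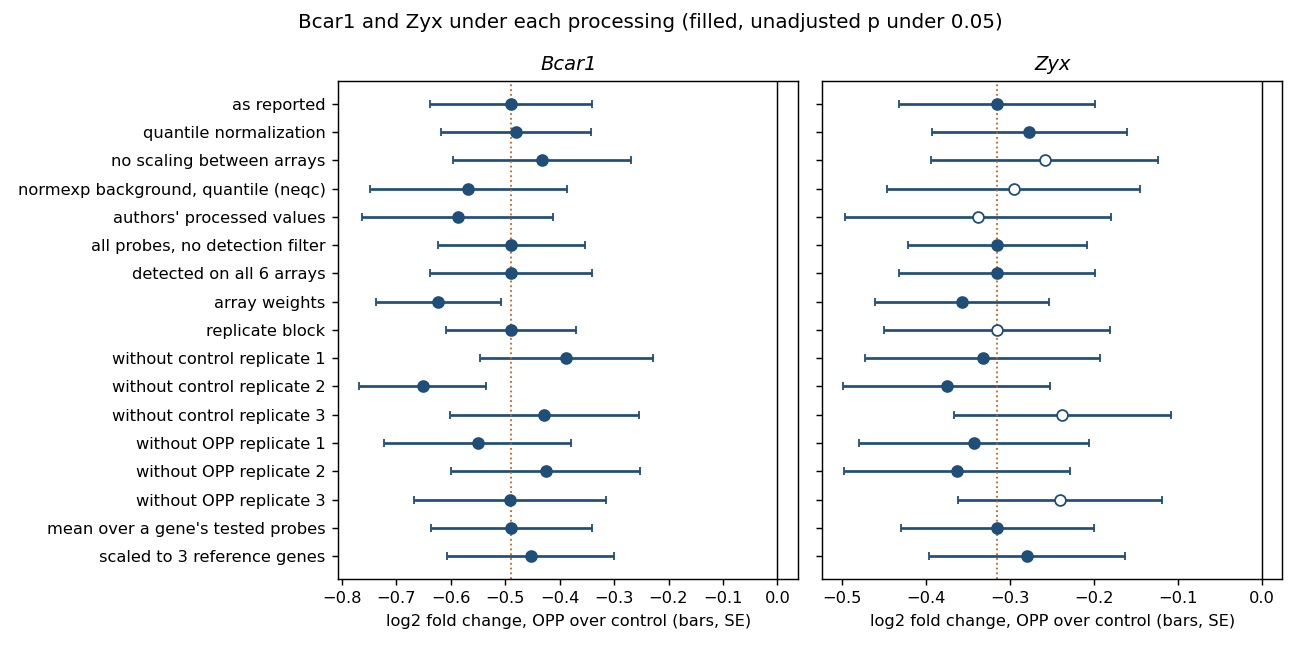
Log2 fold change (OPP over control) of *Bcar1* and *Zyx* as reported (dotted line) and in 16 other ways of processing, with bars for the standard error and filled points for an unadjusted p under 0.05. All values of both genes lie below 0, *Bcar1* between -0.65 and -0.39 and *Zyx* between -0.38 and -0.24, and 6 points of *Zyx* are open. Leaving out 1 brain could not move a value past 0, since the groups did not overlap.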

How the data were processed

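Brains of 6 mice were measured, 3 per group. Per the file headers, the deposited intensities are bead means per probe, background included, each with a detection p-value; the authors made them with BeadStudio (1.5.1.3 in the submitters' processing notes). A second table holds the authors' processed intensities, background-subtracted and scaled between arrays, and was used as an alternative.

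Intensities were scaled on rank-invariant probes (factors 0.883 to 1.04), an approximation of the rank-invariant method that the authors ran in BeadStudio. A floor of 10, which the authors set on their own values for fold changes, changed none of these intensities. Then log2 was taken. Their Illumina Custom error model was replaced by limma 3.58.1 (R 4.3.3), tested on simulated data. Probes whose detection level averaged over 0.99 in either group (7611) were fitted on all 6 arrays, without covariates, and adjusted by Benjamini-Hochberg. A gene was represented by its tested probe with the highest mean. Of the 24048 probes, 19398 had 1 symbol, 0 several and 4650 none. Background remains in the intensities (174 to 209 units were removed in the authors' values), so fold changes of dim probes are understated. The number of arrays limits the precision.

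The genes and lists were chosen with earlier results of these data known. Named from each list were genes with an unadjusted p under 0.05, at least 2, and the 5 genes most like *Bcar1*. *Hspg2*, *Nid1*, *Col4a1*, *Col4a2*, *Lamb2*, *Lamc1*, *Agrn*, *Enah*, *Evl*, *Actb*, *Arhgef6*, *Efs*, *Crkl* and *Rac1* were added after their values were seen. Alternatives covered scaling, background, detection filter, probe choice, array weights, a replicate block and leaving out each brain.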

Additional observations from a re-analysis of the deposited data

How the results depend on the processing

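The log2 fold change of *Bcar1* kept its sign and an unadjusted p under 0.05 in all 16 alternatives (-0.65 to -0.39). Since its groups and those of *Zyx* did not overlap, leaving out or weighting brains could not turn their signs. The detection filter settings, the replicate block and the mean over probes left both log2 fold changes unchanged. *Tln1* kept its sign in all 16 without passing in any, at -0.19 with normexp background correction and -0.20 on the authors' values. The count of lower genes around *Bcar1* at an unadjusted p under 0.05 went from 2 to 1, with *Zyx* lost, without scaling between arrays, with normexp background correction (neqc), on the authors' processed values and with the replicate block, and without 1 brain it lay between 1 and 2. Probes lower after adjustment numbered 2 with neqc, on the authors' values and with all probes, 0 with probes detected on all 6 arrays, 2 (and 1 higher) with array weights, against 1 and 0 as reported, and without 1 brain they were 1 to 6 lower and 0 to 1 higher. Lower genes in the 5 lists went from 3 to 5 with neqc, 6 (and 1 higher) with all probes and 6 (and 4 higher) with array weights. Without 1 brain they were 2 to 5, with 0 to 5 higher. The shares over the whole array were 2.19% lower with neqc and 2.03% lower with all probes. With array weights 6.12% of the probes were lower and 3.76% higher, and without control replicate 2 the shares were 6.29% and 3.92%. As reported they were 2.08% and 1.79%, so calls rose over the whole array in these 2 settings and not in the lists alone. The sign turned for *Vcl* with array weights (-0.026; -0.11 to 0.28 without 1 brain), for *Itgb1* with array weights (-0.029; -0.052 to 0.091 without 1 brain, below 0 without control replicate 2 and at -0.014 without OPP replicate 1), and for *Ilk* without scaling (0.0015; -0.097 to 0.0016 without 1 brain). The cause was not tested. Without control replicate 2, 479 probes were lower and 298 higher at an unadjusted p under 0.05, against 158 and 136 with it. Deviations from the group mean had r of -0.27, 0.05 and 0.17 between brains with the same replicate number. Between differently numbered brains r was -0.31 to 0.29. So few brains cannot show whether the numbers pair them, and the labels do not say. With the replicate block *Bcar1* stayed at -0.49 (SE 0.12, unadjusted p = 0.00404) and *Zyx* had an unadjusted p of 0.0502. Without scaling, 1.93% of probes were higher and 0.933% lower, so the split between directions depends on the scaling. Signal close to background limits what can be said of *Pxn*, *Src* and *Crk*.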
